A study of Homo sapiens with 2 samples.

Results

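Mitotic cells were described in 2 droplet single-cell RNA libraries of the human line MOLT4, which derives from T-cell acute lymphoblastic leukemia. The control library came from untreated cells, and the SP11 library from cells given 0.8 µM SP11 for 48 h. SP11 is a small-molecule inhibitor of HSP90, a chaperone of many signalling proteins. Each condition was a single library, and whether a library pooled several cultures was not stated, so the differences between libraries have no replicate check and no p-value is given. Cells of a library were not treated as replicates. Mitotic cells were taken by a fixed share: each cell's UMIs (unique molecular identifiers, counted RNA molecules) in the 10 marker genes PIF1, UBE2C, CDC20, CCNB1, PLK1, CENPF, HMMR, AURKA, CCNB2 and CENPE were divided by its total, and the highest 15% of cells in each library were kept. This gave 144 of 963 control cells and 115 of 769 SP11 cells, 259 of 1732 in all, and the remaining 819 and 654 cells of the same library served for comparison. Since the share taken was the same in both libraries, the number of mitotic cells says nothing about how often cells divided. The marker transcripts are also present in G2 phase, so the cells called mitotic here can include G2 cells.

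Cells enter mitosis when the kinase CDK1, bound to A-type and B-type cyclins, is switched on; the chromosomes then condense, attach through kinetochores to a spindle of microtubules, and are held by the spindle checkpoint until every chromosome is attached. The anaphase-promoting complex (APC/C), activated by CDC20, next marks cyclins and securin for destruction, sister chromatids part, and the cell is cleaved at the midzone. The transcripts for these steps accumulate in late S and G2 phase, whereas replication genes peak earlier and core histone messages are made while DNA is copied.

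The 10 markers cover these steps. CCNB1 and CCNB2 are the B-type cyclins; PLK1 and AURKA are kinases of mitotic entry and spindle poles; CDC20 activates the APC/C and UBE2C is one of its ubiquitin-conjugating enzymes. CENPF and CENPE act at kinetochores, the latter as a motor, HMMR organises spindle microtubules, and PIF1 is a DNA helicase. Many late cell-cycle genes carry a promoter element of the form TTTGAA, known as the CHR, near a CCAAT box. Both were searched on both strands in the RefSeq promoters (GRCh38.p14, 250 bases before to 50 after the start), where 8 of the 10 markers were listed. The 120 bases before the start site of 4 markers are shown because CDC20 and PLK1 were higher in mitotic cells of the SP11 library than of the control library, and PIF1 and CENPE lower. Those differences are tied to each other by the choice of cells, as described below. Capitals mark TTTGAA and CCAAT, or their reverse complements.
CDC20, chr1:43358861-43358980, plus strand: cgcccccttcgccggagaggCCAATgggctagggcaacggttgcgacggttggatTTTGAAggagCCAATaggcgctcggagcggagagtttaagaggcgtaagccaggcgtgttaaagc
PLK1, chr16:23678769-23678888, plus strand: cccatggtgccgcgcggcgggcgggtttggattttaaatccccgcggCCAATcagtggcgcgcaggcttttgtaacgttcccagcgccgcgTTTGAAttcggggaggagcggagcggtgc
PIF1, chr15:64825648-64825767, minus strand: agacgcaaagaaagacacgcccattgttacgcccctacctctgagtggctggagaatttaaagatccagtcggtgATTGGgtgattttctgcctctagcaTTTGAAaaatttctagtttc
CENPE, chr4:103198344-103198463, minus strand: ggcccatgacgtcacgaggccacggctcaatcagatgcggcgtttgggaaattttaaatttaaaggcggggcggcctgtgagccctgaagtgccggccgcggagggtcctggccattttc
CDC20, PLK1 and PIF1 hold both elements in this stretch, whichever way they differed between the libraries, and CENPE holds neither. TTTGAA was found in 6 of the 8 listed markers (75%), in 27 of 40 promoters of a standard G2M gene list with the markers removed (67.5%), and in 1 of 33 promoters of an S-phase list (3.03%). Of all 27305 promoters, 15.4% held it, and of the 8850 promoters of measured genes, 854 (9.65%) did. CCAAT was found in 87.5%, 67.5% and 69.7% of the promoters of markers, G2M list and S list, against 35.7% of all promoters. With the variant TTCGAA counted as well, 29 of 40 G2M list promoters (72.5%), 2 of 33 S list promoters (6.06%) and 16.6% of all promoters held a form. Other variants of the CHR were not searched, so a promoter without these letters may hold another form. A match of this kind is a description of the letters and not evidence of binding.

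Control mitotic cells held a median of 22079 UMIs (8107 to 46552) against 17912 in the other control cells, and SP11 mitotic cells a median of 12109 (4413 to 39842) against 11074. They held a median of 5628 and 3763 detected genes. Mitochondrial transcripts made up a median of 8.57% of UMIs in control and 5.37% in SP11 mitotic cells, against 9.21% and 5.67% in the other cells. Summed over cells, the mitotic cells gave 3314662 control and 1514884 SP11 UMIs, and the other cells 15945077 and 7799859. Levels below are in CPM, a gene's UMIs in such a sum scaled to a common total, which is a share of the RNA and not an amount per cell, and log2 ratios carry 95% intervals that cover counting error only. Transcripts of T-lineage genes were scarce in both libraries. The 31 genes of a T-lineage list summed to 65.8 CPM (control) and 49.5 CPM (SP11) in mitotic cells, and of these only CD4 reached 50 UMIs over the mitotic cells of both libraries, whereas ELANE, which encodes a neutrophil granule protease, stood at 1104 and 471 CPM. The line is called MOLT4 here as in the labels. The libraries shared 114 barcodes, of which 17 fell among control and 11 among SP11 mitotic cells, and values without them stand beside the main counts and ratios. Over the 26 lists of 10 or more measured genes, leaving them out moved the median log2 ratio of SP11 to control mitotic cells by at most 0.13, in NF-kB targets.

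The marker share of control mitotic cells ran from 0.196% to 0.496% with a median of 0.249%, and that of SP11 mitotic cells from 0.201% to 0.403% with a median of 0.243%. The median of the other cells was 0.0438% in the control and 0.0817% in the SP11 library. No gap separated the mitotic cells from the rest: the last control cell inside stood at 0.196123% and the first outside at 0.196103%, and in the SP11 library these were 0.200648% and 0.200217%. Within 10% of the cut-off lay 53 control and 86 SP11 cells. A median of 57 marker UMIs per cell (19 to 141) decided the control choice and 29 (10 to 122) the SP11 choice, with a median of 9 and 8 of the 10 markers detected.

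**Figure D1:**
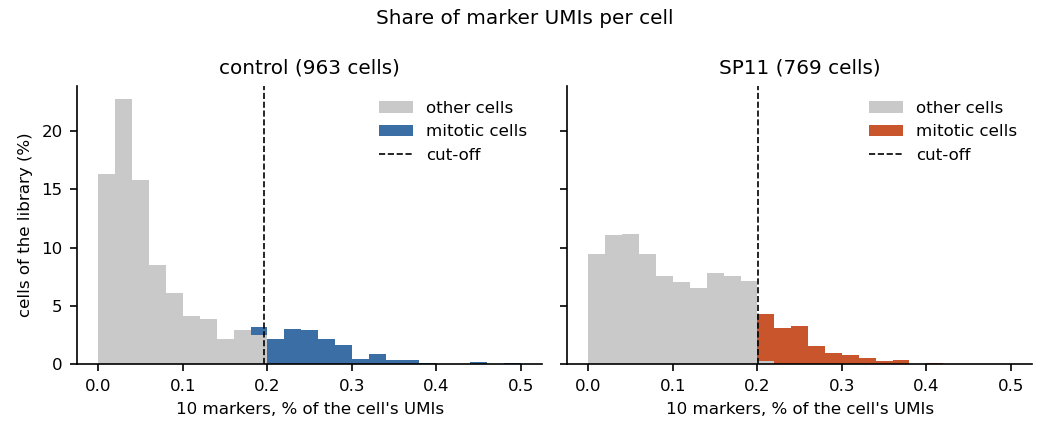
Percent of the library's cells (vertical axis) by the share of UMIs in the 10 markers, in percent (horizontal axis), for the control and SP11 libraries, with the lowest share taken as mitotic dashed. Both distributions run across the cut-off without a gap. The SP11 library holds a smaller part of its cells near 0, with a median share of 0.107% against 0.0521%.

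The shares below the cut-off differed more than those above it. A marker share of at least 0.1% was found in 294 of 963 control cells (30.5%, exact binomial interval 27.6 to 33.5) and in 394 of 769 SP11 cells (51.2%, 47.6 to 54.8). With every cell thinned to 4400 UMIs, so that depth was equal, these shares were 31.0% (28.1 to 34.1) and 47.9% (44.3 to 51.5). Without the shared barcodes they were 30.2% and 51.4% at full depth and 30.4% and 48.4% after thinning. At 0.2% and above the shares were 14.2% and 15.2%, or 15.1% and 20.3% after thinning.

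Which markers filled the share differed between the libraries. The choice of cells held the summed share of the markers close between the libraries' mitotic cells, so the marker ratios there are not independent. A marker that fills more of the share leaves less for the other markers. The ratios between mitotic cells thus describe the make-up of the share, and their intervals do not cover this tie. CDC20 stood at 39.8 CPM in the other control cells and 134 CPM in control mitotic cells, and at 146 and 329 CPM in the SP11 library. In PLK1 these levels were 34.1, 208, 106 and 315 CPM in the same order. CDC20 in the other SP11 cells was thus near its level in control mitotic cells. Between mitotic cells, SP11 against control, the log2 ratio was 1.30 (1.11 to 1.48) for CDC20 and 0.60 (0.43 to 0.77) for PLK1, or 1.31 and 0.64 without the shared barcodes. It was 0.22 (0.04 to 0.39) for CCNB2 and 0.01 (-0.17 to 0.18) for CCNB1. The CCNB1 levels of 250 and 252 CPM could not be told apart on the CPM scale, but TMM scaling adds 0.23 to the ratio.

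On the CPM scale the remaining markers were lower in SP11 mitotic cells or had an interval that included 0. PIF1 went from 79.6 to 46.2 CPM, a log2 ratio of -0.79 (-1.19 to -0.40), or -0.60 without the shared barcodes. CENPE differed by -0.56 (-0.77 to -0.35), CENPF by -0.43 (-0.54 to -0.33), HMMR by -0.43 (-0.66 to -0.20) and AURKA by -0.29 (-0.46 to -0.12). UBE2C stood at 65.5 and 58.1 CPM, a difference of -0.17 with an interval from -0.55 to 0.19. TMM scaling adds 0.23 to each of these ratios, more than the distance of the HMMR interval from 0. With it AURKA differed by -0.07 and UBE2C by 0.05, so no direction is given for HMMR, AURKA and UBE2C. The 10 markers summed to 2619 CPM (control) and 2501 CPM (SP11) in mitotic cells. The choice of cells holds these sums close, so the lower ratios of some markers are tied to the higher ones of CDC20 and PLK1. In the other cells the markers totalled 645 CPM in the control and 953 CPM in the SP11 library. There the log2 ratio was 1.88 for CDC20, 1.64 for PLK1 and 0.73 for CCNB1.

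**Figure D2:**
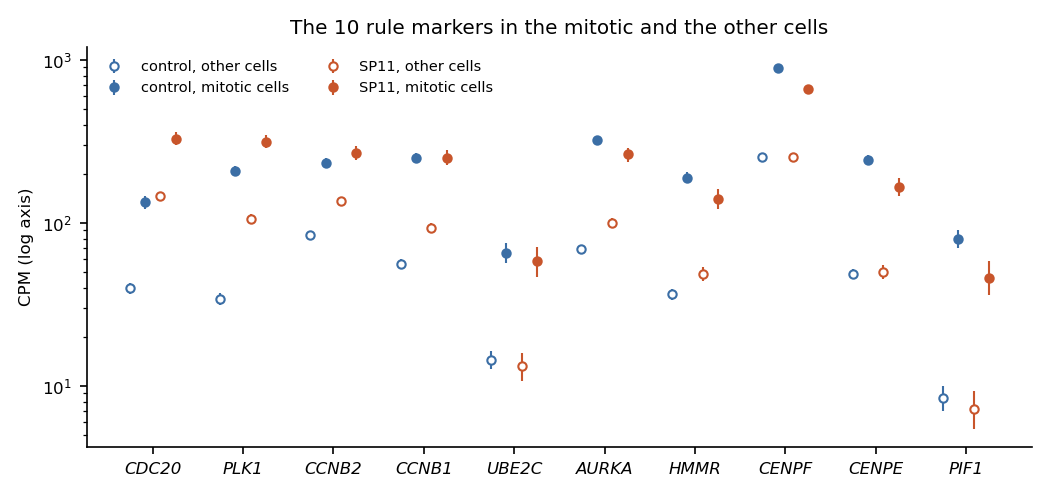
Level in CPM (log axis) of the 10 markers in the other and mitotic cells of each library, with bars for the 95% Poisson interval of the count, ordered by the SP11 against control ratio of mitotic cells. CDC20 and PLK1 stand at the high end with log2 ratios of 1.30 and 0.60, and PIF1 at the low end with -0.79.

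To see how a marker varied when it had no part in the choice, cells were ranked again on the other 9 markers. The left-out marker was then higher in the mitotic cells in all 10 cases of each library, with log2 ratios from 1.36 (CCNB2) to 3.04 (PIF1) in the control and from 0.71 (CCNB2) to 2.40 (PIF1) in the SP11 library. In mitotic cells chosen without it, CDC20 stood at 130 CPM (control) and 294 CPM (SP11), and PLK1 at 198 and 296 CPM. PIF1 stood at 76.3 and 42.4 CPM, and CENPE at 230 and 144 CPM. These 4 markers thus kept their order between the libraries without a part in the choice, while the other 9 stayed tied. At 4400 UMIs per cell, CDC20 was detected in 50% of control mitotic cells, 15.9% of the other cells and 8.33% of the lowest 15% of cells, and in the SP11 library in 73.0%, 43.3% and 20.9%. Before thinning, CDC20 was seen in 93.1% (control) and 95.7% (SP11) of mitotic cells and in 19.4% and 26.1% of the lowest 15%, whose median depth was 15105 and 10362 UMIs. For PLK1 the thinned shares were 54.2%, 11.4% and 1.39% in the control and 70.4%, 30.3% and 6.09% in the SP11 library. PIF1 was seen at this depth in 28.5% (control) and 15.7% (SP11) of mitotic cells, in 2.44% and 2.75% of the other cells, and in none of the lowest 15%. CENPE gave 57.6%, 15.4% and 4.17% in the control and 47.8%, 19.9% and 5.22% in the SP11 library. The lowest 15% give the level reached where few mitotic transcripts are present, free RNA included, and mitotic cells stood above it for these 4 genes in each library.

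On GRCh38, CDC20 lies on chromosome 1 from 43358981 to 43363203 and PLK1 on chromosome 16 from 23677656 to 23690367, both on the plus strand. PIF1 lies on chromosome 15 from 64815632 to 64825668 and CENPE on chromosome 4 from 103105349 to 103198445, both on the minus strand. These spans are from GENCODE 44, whereas the promoters above used RefSeq start sites. The start sites differ for PLK1, PIF1 and CENPE. The printed PLK1 stretch therefore lies within its span, and those of PIF1 and CENPE lie partly within theirs. CDC20 holds 2211 intronic bases, PIF1 5381, PLK1 7952 and CENPE 83169, by GENCODE 44. Intron length moved with the comparison of the libraries over all genes, as shown further below.

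Within each library, genes with at least 50 UMIs over the mitotic and other cells were compared, and a 1.5-fold ratio was used as a mark of size, not as a call of significance. The mitotic cells were chosen by a cell-cycle measure, so these contrasts describe the choice and test nothing. In the control library 616 of 11588 genes outside the markers (5.32%) were higher in mitotic cells by that factor and 968 (8.35%) lower, around a median log2 ratio of -0.00. In the SP11 library these were 462 (4.91%) and 482 (5.12%) of 9412 genes, around 0.05. Without the shared barcodes the counts were 617 and 975 in the control and 473 and 483 in the SP11 library. Higher in both libraries by that factor were 135 genes outside the markers, and TTTGAA was found in 59 of their 113 listed promoters (52.2%).

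Of the 47 genes of the G2M list outside the markers, 43 in the control and 37 in the SP11 library were at least 1.5-fold higher in mitotic cells, with median log2 ratios of 1.49 and 0.82. Their summed level was 4394 CPM in the other and 10590 CPM in the mitotic control cells, a log2 ratio of 1.27 (1.25 to 1.29). In the SP11 library it was 5072 and 8579 CPM, a log2 ratio of 0.76 (0.73 to 0.79). Per cell, the mitotic medians were 10499 CPM (5584 to 16879) and 8483 CPM (4208 to 17040), against 3563 and 4623 CPM in the other cells. The mitotic and other cells were thus closer in the SP11 library, from both sides. The libraries differ in depth, and with all cells ranked on 4400 UMIs the ratios were 1.20 and 0.71. Without the shared barcodes they were 1.26 and 0.75. Of the mitotic cells, 115 of 144 in the control (79.9%, 72.4 to 86.1) and 64 of 115 in the SP11 library (55.7%, 46.1 to 64.9) were also among the highest 15% by the G2M list.

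The cyclin and CDK1 group carried the entry switch. CDK1 stood at 44.2 CPM in the other and 141 CPM in the mitotic control cells, and at 32.3 and 59.4 CPM in the SP11 library. CKS2, a small CDK-binding subunit, stood at 107, 313, 79.1 and 162 CPM in the same order. CDC25C, a phosphatase that removes inhibitory phosphates from CDK1, was at 12.9, 40.4, 4.87 and 8.58 CPM. Its ratio of SP11 mitotic to other cells was -0.10 when cells were ranked at 4400 UMIs. Its relative CDC25B was at 18.0, 48.3, 36.9 and 81.2 CPM, so the family members stood in opposite order between the libraries. Of 15 measured genes of the group, 10 in the control and 8 in the SP11 library were at least 1.5-fold higher in mitotic cells and none lower.

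Spindle genes were higher in mitotic cells almost throughout. All 12 motor genes were at least 1.5-fold higher in control mitotic cells (median 1.36) and 9 in SP11 mitotic cells (median 0.79). KIF14, a motor of the midzone, stood at 67.5 and 306 CPM in the control and at 67.6 and 154 CPM in the SP11 library. KIF20A, which carries the passenger complex to the midzone, stood at 7.27 and 41.0 CPM and at 15 and 34.3 CPM. Of 30 spindle assembly genes, 25 and 22 were at least 1.5-fold higher. TPX2, which activates AURKA on microtubules, was at 326 and 1041 CPM in the control and at 525 and 1009 CPM in the SP11 library. ASPM, a spindle-pole protein, was at 34.4 and 163 CPM and at 27.3 and 75.9 CPM. TPX2 was therefore nearly equal between the mitotic cells while its level in the other cells was higher in the SP11 library, whereas ASPM was lower in SP11 cells of both kinds.

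All 4 genes of the chromosomal passenger complex, which corrects faulty attachments, were at least 1.5-fold higher in mitotic cells of each library. Of the 12 checkpoint genes, 6 were higher and 1 lower in the control library, and 3 higher and none lower in the SP11 library. The lower gene was KNTC1, a kinetochore subunit that recruits dynein, at 67.7 CPM in other and 32.9 CPM in mitotic control cells and at 30.1 and 21.1 CPM in the SP11 library. The checkpoint kinase BUB1 stood at 65.8 and 201 CPM in the control library and at 58.1 and 107 CPM in the SP11 library. Among 30 kinetochore and centromere genes, 10 and 9 were higher with medians of 0.41 and 0.30, and the lower ones were CENPP in the control and DSN1 in the SP11 library. CENPA, the centromeric histone H3, was at 43.2 and 170 CPM and at 51.3 and 105 CPM, so most of the group differed less than this member.

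Of 18 genes of condensin and chromosome structure, 10 and 7 were at least 1.5-fold higher in mitotic cells, among them TOP2A, the topoisomerase that untangles sister chromatids, at 208 and 696 CPM in the control and 208 and 478 CPM in the SP11 library. Cytokinesis genes were higher in 6 and 4 of 11 cases. Of 18 APC/C subunits and regulators, 5 were higher in the control library, and in the SP11 library 3 were higher and 1 lower. The lower gene was FBXO5, also called EMI1, an inhibitor of the APC/C, at 61.0 CPM in other and 101 CPM in mitotic control cells but at 41.9 and 27.1 CPM in the SP11 library. That order of FBXO5 depended on the choice of cells, with a log2 ratio of 0.08 when SP11 cells were ranked by the G2M list. Its partner in the opposite role, the APC/C enzyme UBE2S, was at 179 and 544 CPM and at 271 and 449 CPM. Of the 8 cohesin genes 1 was higher in the control library and none in the SP11 library, the former being RAD21, the cleavable subunit, at 140 and 228 CPM.

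Replication genes stood the other way. Of the 43 S-phase list genes, 22 in the control and 21 in the SP11 library were at least 1.5-fold lower in mitotic cells and none higher, with medians of -0.62 and -0.54. UNG, a uracil glycosylase of replicating DNA, stood at 35.4 CPM in other and 2.72 CPM in mitotic control cells, and at 34.6 and 10.6 CPM in the SP11 library. E2F1, a transcription factor of S-phase entry, was at 21.8 and 3.62 CPM and at 33.1 and 18.5 CPM. Both genes were closer between mitotic and other cells in the SP11 library, but they were named from the ends of the list. In control mitotic cells 1 UMI is 0.302 CPM, so their levels there rest on few UMIs. The list as a whole differed little between the libraries, by its medians and counts. Among 35 measured replication-dependent histone genes of the control library, 24 were lower and 1 higher, and all 8 measured in the SP11 library were lower. HIST1H4C, a histone H4 gene, was at 777 and 410 CPM in the control and at 1649 and 476 CPM in the SP11 library.

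Over all genes outside the markers, the highest ratios of mitotic to other cells were mostly of division genes, many of them members of the lists above. The lowest ratios are not listed here. In the control library UNG, given above, was lower by a larger factor than any gene listed here was higher. Among genes with at least 200 UMIs where they are higher, the 10 highest of the control library were CXCL8, ASPM, KIF18A, KIF14, CDCA2, KIF23, CENPA, FAM83D, CCNF and CDCA8, and the 10 highest of the SP11 library were KIF23, CDCA8, TOP2A, KIF14, CKAP2, CKS2, DLGAP5, MKI67, TPX2 and MALAT1. CXCL8, a chemokine, rests on 1 cell, which held 84.9% of its UMIs in control mitotic cells. MALAT1, a long RNA kept in the nucleus, stood at 1695 CPM in other and 2757 CPM in mitotic control cells and at 836 and 1605 CPM in the SP11 library, while NEAT1, the scaffold RNA of nuclear paraspeckles, stood at 1336 and 921 CPM and at 332 and 209 CPM. These nuclear RNAs were thus in opposite order in mitotic cells of each library.

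Cells were also ordered by marker share into 10 equal rank groups, the mitotic cells lying in the last and part of the one before it. The summed histone level was 423 CPM in group 1 of the control cells, highest in group 7 at 2850 CPM, and 552 CPM in group 10. In the SP11 library it was highest in group 5 at 2914 CPM, 1098 CPM in group 7, and 576 CPM in group 10. The make-up of the sum differed: HIST1H4C alone gave 1462 CPM of the control peak and 2597 CPM of the SP11 peak, and the other histone genes 1388 and 317 CPM. Without HIST1H4C the level was highest in group 7 of the control cells and in group 4 of the SP11 cells, at 347 CPM. Without the shared barcodes the whole sum was highest in the same control group at 2889 CPM and in group 4 of the SP11 cells at 3064 CPM. The S-phase list was highest in group 6 of the control cells at 4902 CPM and in group 4 of the SP11 cells at 5756 CPM. The G2M list ran from 2081 to 11191 CPM in the control and from 2364 to 8905 CPM in the SP11 library. The histone and replication maxima thus lay at lower ranks in the SP11 library, where more cells hold a marker share of at least 0.1%. Ranks are relative to each library and say nothing of time in the cell cycle.

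**Figure D3:**
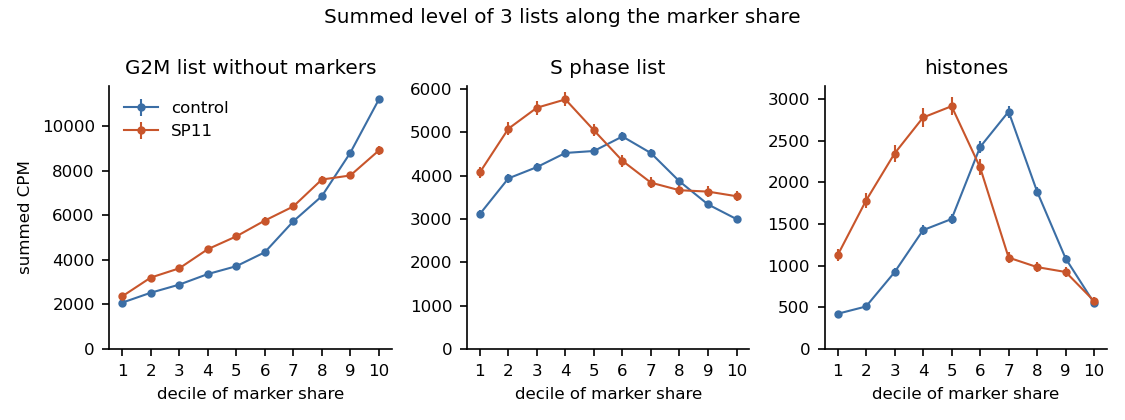
Summed level in CPM of the G2M list without the markers, the S-phase list and the replication-dependent histones (panels) by rank group of marker share (horizontal axis, 10 the highest) in both libraries. Histones peak at 2850 CPM in group 7 of the control cells and at 2914 CPM in group 5 of the SP11 cells, and stand at 552 and 576 CPM in group 10.

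Mitotic cells of the SP11 library were then compared with mitotic cells of the control library. Of 8679 genes with at least 50 UMIs over both sets, 1046 (12.1%) exceeded the control by 1.5-fold or more in SP11 mitotic cells and 2685 (30.9%) stood as far below it, around a median log2 ratio of -0.22. Measured from that median gene the counts were 1737 and 1853, together 41.4% of the genes, and with TMM scaling 1748 and 1838. Without the shared barcodes they were 1009 and 2451. In the other cells the median over 11753 genes was -0.35. Ratios below are on the CPM scale unless said to be relative to the median gene.

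Of the 47 G2M list genes, 2 exceeded 1.5-fold upward and 18 downward in SP11 mitotic cells, and 3 and 13 when measured from the median gene. These and the counts below are to be read beside 12.1% and 30.9% of all 8679 genes. From the median gene, 1737 and 1853 of the 8679 stood above and below. The list's median log2 ratio was -0.37, or -0.15 from that gene. The summed level of the list differed by -0.30 (-0.33 to -0.27), to which TMM scaling adds 0.23. In the other cells the list differed the other way, by 0.21 (0.19 to 0.22). The list rises with the markers, whose share the choice of cells held close. Its difference between mitotic cells is therefore a description only. Of 12 motor genes none was higher and 5 lower (median -0.40), or none and 4 from the median gene. Of 15 cyclin and CDK1 genes 1 was higher and 7 lower (median -0.51), but 4 and 4 from the median gene, so the balance of counts in that group depends on the scaling. Of 11 cytokinesis genes none was higher and 5 lower (median -0.48), or 1 and 4 from the median gene. With so few genes, the motor and cytokinesis counts alone are given no direction. The summed level of the motors differed by -0.54 with all cells and by -0.47 without the shared barcodes. TMM scaling adds 0.23 here too, and in the other cells the motors differed by 0.16. For condensin, the passenger complex, cohesin, the APC/C and the nuclear envelope the medians lay between -0.23 and -0.13 on the CPM scale, and TMM scaling brought them to between -0.00 and 0.09, so no direction is given for these groups.

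Members of a group were far from uniform. Lower in SP11 mitotic cells among the entry genes were CDC25C with a log2 ratio of -2.24 (-3.18 to -1.41), CDK1 with -1.25 (-1.59 to -0.92) and CKS2 with -0.95 (-1.16 to -0.75). Higher was CDC25B with 0.75 (0.40 to 1.10). In the passenger complex INCENP, its scaffold, went from 86.9 to 27.1 CPM with a ratio of -1.68 (-2.19 to -1.21), while BIRC5, or survivin, went from 135 to 211 CPM with 0.64 (0.43 to 0.85). AURKB, the kinase of the same complex, stood at 85.7 and 85.2 CPM, and its interval of -0.32 to 0.30 leaves room for a difference of either sign.

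Among spindle genes, KIF18A, a motor that shortens microtubule ends, had a log2 ratio of -1.49, ASPM -1.10 (-1.40 to -0.81) and KIF14 -0.98 (-1.20 to -0.78). TPX2 differed by -0.05 (-0.13 to 0.04). SAPCD2, which takes part in spindle orientation, stood at 32.9 CPM (control) and 86.5 CPM (SP11) in mitotic cells, a ratio of 1.39 (1.02 to 1.77). Of the 30 spindle assembly genes 2 passed 1.5-fold upward and 8 downward, beside 12.1% and 30.9% of all genes, and from the median gene these were 4 and 4. The group as a whole is therefore given no direction. Among genes of the cleavage furrow, ANLN, an actin-binding scaffold, went from 183 to 56.1 CPM with a ratio of -1.71 (-2.05 to -1.38), and the kinase CIT had -1.57. Of the tubulins, which form the spindle's fibres, 4 of 9 were higher and 1 lower (median 0.52). TUBA1C stood at 247 and 435 CPM in mitotic cells, a ratio of 0.82 (0.67 to 0.97), and the lower one, TUBA1A, had -1.27.

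Of the 12 checkpoint genes 1 stood above 1.5-fold and 4 as far below, shares near the 12.1% and 30.9% of all genes. The 4 were the kinases BUB1 (-0.91), BUB1B (-0.87) and TTK (-0.68) and the kinetochore subunit KNTC1 (-0.64), and the single higher one was ZWILCH, a partner of KNTC1 in the same complex, with 0.89 (0.54 to 1.23). MAD2L1, which with BUB1B forms the inhibitor of CDC20, had 0.01. Relative to the median gene 2 were above and 2 below, so the balance of this group depends on the scaling.

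At kinetochores 2 of 29 measured genes stood above 1.5-fold and 11 as far below (median -0.32), near the 12.1% and 30.9% of all genes. From the median gene these were 3 and 7 with a median of -0.10, and the summed level of the group differed by -0.28 on the CPM scale and -0.05 with TMM scaling. CENPI, of the constitutive centromere network, had -2.11, and HJURP, the chaperone that loads CENPA, -1.54, while CENPU of the same network had 0.99 (0.66 to 1.32). FBXO5 stood at 101 and 27.1 CPM in mitotic cells, a ratio of -1.90 (-2.41 to -1.43). Among transcription factors of the programme, FOXM1 had 0.08 with 56.7 and 60.1 CPM, whereas MYBL2, a subunit of the MuvB complex that activates late genes, went from 84.2 to 189 CPM with a ratio of 1.17 (0.93 to 1.41). Of the 40 measured S-phase list genes, 11 stood above 1.5-fold and 4 as far below in SP11 mitotic cells (median 0.18), or 17 and 3 from the median gene. Of 16 licensing genes, which load the replicative helicase, 7 stood above 1.5-fold and 1 as far below (median 0.49), or 9 and none from the median gene, and MCM7, a helicase subunit, went from 138 to 394 CPM with a ratio of 1.52 (1.34 to 1.70). Of the 7 measured replication-dependent histone genes 6 were lower and none higher (median -2.21), linker and core histones both among them. Of the 71 histone genes listed, 21 had no UMI in control and 48 none in SP11 mitotic cells. The linker gene HIST1H1C stood at 60.3 and 7.26 CPM with a ratio of -3.05, and the core genes HIST1H3B at 29.0 and 0.660 CPM and HIST2H2AC at 17.8 and 9.90 CPM with -0.85. The SP11 level of HIST1H3B is 1 UMI. HIST1H4C, the exception, stood at 410 and 476 CPM with 0.22 (0.08 to 0.35).

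The genes farthest from equality between the libraries' mitotic cells were not division genes. Among those with at least 200 UMIs where they are higher, the 10 highest in the SP11 library were S100A8, CCL2, MT2A, IFI30, COPS9, NDUFA3, MT1X, ROMO1, RPS26 and ATP5ME. MT2A, a metal-binding metallothionein, stood at 178 and 1026 CPM with a log2 ratio of 2.53. CCL2, a monocyte-attracting chemokine, stood at 14.2 and 149 CPM, and its 226 UMIs came from 43 of the 115 SP11 mitotic cells. Lowest were MT-ATP8, a mitochondrially encoded subunit of ATP synthase, at 843 and 42.9 CPM with -4.30, and PPDPF at 122 and 7.26 CPM with -4.08. These levels were close to those of the other cells of the same library, where MT-ATP8 stood at 1068 and 48.2 CPM and PPDPF at 113 and 6.03 CPM.

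**Figure D4:**
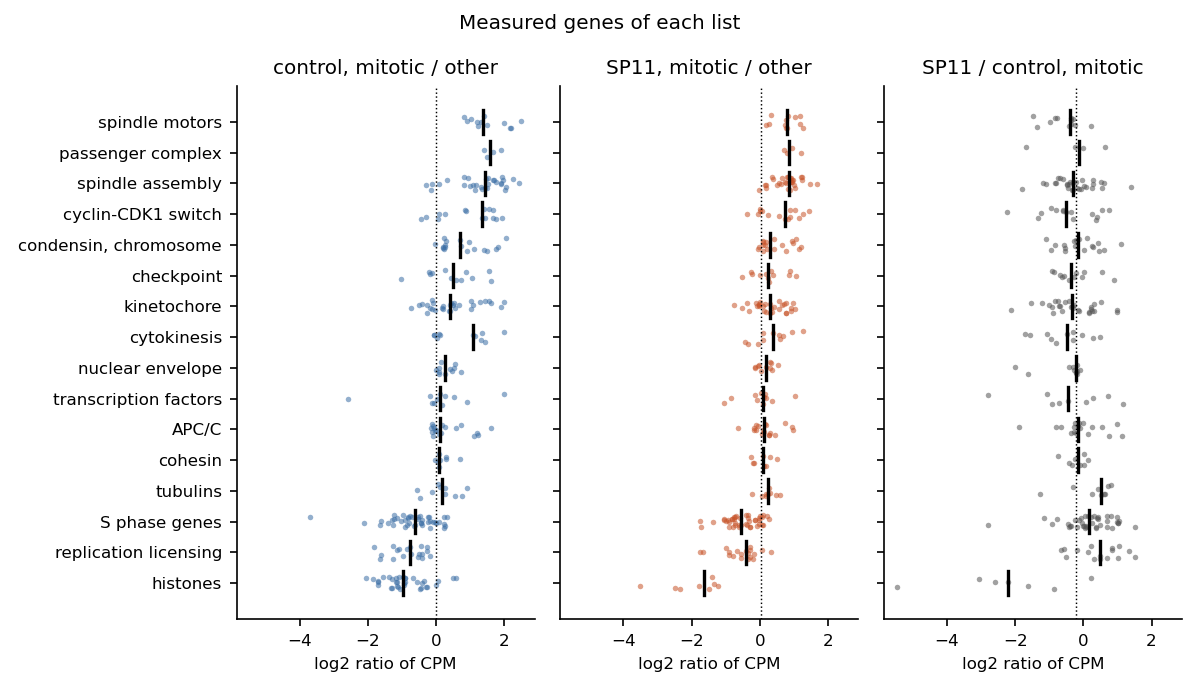
Log2 ratio of each measured gene (points) in gene lists by role (vertical axis) for control mitotic against other cells, SP11 mitotic against other cells, and SP11 against control mitotic cells, with the list median as a black bar and the median of all measured genes dotted. The motors lie at medians of 1.36, 0.79 and -0.40, and the S-phase list at -0.62, -0.54 and 0.18.

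To set the libraries' mitotic cells against their own background, the log2 ratio between libraries in the other cells was subtracted from that in mitotic cells for 4792 genes with at least 50 UMIs in each of the 4 sets. At least 1.5-fold above 0 were 109 genes (2.27%) and as far below it 95 (1.98%), with a median of 0.01. Without the shared barcodes these were 118 and 81. None of the 42 G2M list genes lay above and 18 lay below, with a median of -0.53. For spindle motors none of 10 lay above and 7 below, and for spindle assembly none of 26 and 12. PLK1 stood at -1.04 (-1.28 to -0.81), KIF20A at -1.30 (-1.93 to -0.68), CDC20 at -0.58 (-0.82 to -0.35) and TPX2 at -0.73 (-0.84 to -0.63). The rule held the marker share of mitotic cells close between the libraries, while the other SP11 cells held more marker RNA than the other control cells. Negative differences of the markers can follow from that choice. So can those of genes that rise with the markers, such as the G2M list, the motors and spindle assembly. All of these are descriptions only. For PLK1 and CDC20 the difference between libraries was larger in the other cells than in the mitotic ones. Leaving out the next 15% of cells below the cut-off, the G2M list ratio of mitotic to other cells was 1.54 in the control and 0.95 in the SP11 library.

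Intron length moved with the comparison of mitotic cells between libraries. Over 10 equal groups of genes by intronic bases, the median log2 ratio went from 0.21 in the shortest group, at a median of 975 bases, to -0.77 in the longest, at 244065 bases, or from 0.24 to -0.72 without the shared barcodes. Within a library, mitotic against other cells, the medians by group lay much closer together, at -0.03 in the shortest and -0.13 in the longest group of the control and at -0.02 and -0.00 in the SP11 library. With the median of its own length group subtracted, a step added after seeing the data, the ratio was 1.08 for CDC20, 0.38 for PLK1, -1.0 for PIF1 and -0.10 for CENPE. The list medians were then -0.27 for motors, -0.53 for the cyclin and CDK1 group, -0.05 for spindle assembly, -0.26 for the G2M list and 0.35 for the S-phase list. CENPE, with the most intronic bases of the markers, and the spindle assembly group were thus near their length group, and CDC20 and PIF1 were not. What part unspliced RNA has in these values was not tested.

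**Figure D5:**
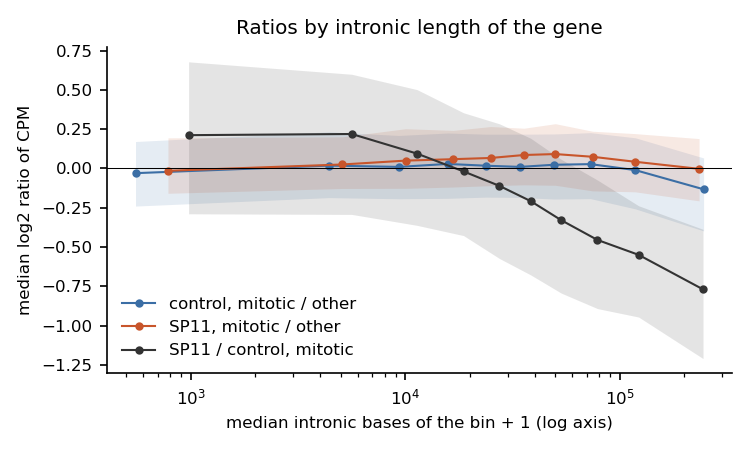
Median log2 ratio (lines, with quartile bands) by group of intronic length, shortest to longest, for mitotic against other cells in the control and SP11 libraries and for SP11 against control mitotic cells. The comparison of libraries slopes from 0.21 in the shortest to -0.77 in the longest group.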

How the data were processed

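UMI counts per gene and barcode were deposited by the authors as filtered matrices made with Cell Ranger 7.1.0 (file headers) on GRCh38. The setting for intronic reads was not given in the sources used here. Barcodes with at least 200 genes, at most 20% mitochondrial UMIs and at least 4400 UMIs were kept. This left 963 of 1076 control barcodes (23 over the mitochondrial limit, 90 under the UMI minimum) and 769 of 864 SP11 barcodes (12 and 83), of total depth 19512669 and 9561360 UMIs. The mitotic cells and the gene lists were chosen with earlier results of these data known.

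Raw counts were summed per library and cell set, since cells are not replicates. Levels are CPM with exact Poisson intervals, ratios carry exact binomial intervals of the split of counts, and shares carry exact Clopper-Pearson intervals, all at 95% and for counting error only. The differences of ratios carry exact conditional odds-ratio intervals, or normal ones where all 4 counts were at least 500. A count of 0 was set to a floor of 3 counts. With 1 library per condition no test was made. The interval script was tested on simulated data: of 200 genes changed among 8689 in the comparison of SP11 with control mitotic cells, the interval held the simulated ratio in 97%. Named genes were taken from a fixed pool: the markers; the 10 highest and 10 lowest log2 ratios among genes with at least 200 UMIs where they are higher, in each comparison; the 5 highest and 5 lowest differences of ratios among genes with at least 50 UMIs in each set; members of mitotic lists with at least 100 UMIs over the mitotic cells; at most 2 from either end of the remaining lists; and genes the study discussed. Exceptions within a list, such as CENPP, DSN1 and TUBA1A, were named after their values were seen. Thinning to 4400 UMIs used a fixed seed of 1. Likely doublets, found by Scrublet (scanpy 1.11.5), stayed in: of 43 control and 24 SP11 calls, 2 and 5 were mitotic cells. TMM factors came from edgeR 4.0.16 and size factors from DESeq2 1.42.0. Intron lengths came from GENCODE 44. Python 3.11.15, numpy 2.4.6, scipy 1.17.1, pandas 2.3.3, matplotlib 3.10.9 and R 4.3.3 were used. The alternatives were the share of cells taken, ranking on thinned cells, by the G2M list or with 1 cut-off for both libraries, mitochondrial genes left out of totals, doublet calls removed, no UMI minimum per cell, equal weight per cell, the next 15% left out, other scalings, and other minimum counts. Leaving out shared barcodes, HIST1H4C in the rank groups, the cell with the most UMIs of a gene, and intron-group medians were added after seeing the data.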

Additional observations from a re-analysis of the deposited data

Results flagged for a closer look

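CXCL8, a neutrophil-attracting chemokine, and MMP1, an interstitial collagenase, stood on opposite sides in the 2 libraries. CXCL8 had a log2 ratio of mitotic to other cells of 2.34 in the control library and -0.93 in the SP11 library. In the control library 84.9% of its UMIs in mitotic cells came from 1 cell, and without the cell of most UMIs in each set the ratio was 0.03. MMP1 had 1.57 and -0.96, with 64.0% of the UMIs of control mitotic cells in 1 cell. Without such cells these were 1.26 and -2.26, so that for MMP1 the signs stayed opposite. The differences were not tested.

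Barcodes under the minimum of 4400 UMIs, which entered no comparison, also held marker transcripts. In the control library 117 of 115424 UMIs in 90 such barcodes were of the 10 markers, 1014 CPM (838 to 1215), where a count of 0 would allow 26.0 CPM. In the SP11 library these were 223 of 184059 UMIs in 83 barcodes, 1212 CPM (1058 to 1381), against 16.3 CPM. At least 1 marker UMI was present in 49 and 67 of them. The floor shows only that the count was not 0. These levels lay between those of the mitotic and the other cells kept, 2619 and 645 CPM in the control and 2501 and 953 CPM in the SP11 library.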

How the results depend on the processing

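No paired analysis was possible because each condition had 1 library. TMM and DESeq2 scaling turned the summed spindle assembly level between the libraries' mitotic cells from -0.21 to 0.02 and 0.03, and the summed histone level went from -0.49 to 0.04 with the highest 10% of cells and 0.03 when ranked at 4400 UMIs. With a minimum of 20 UMIs a gene, 930 genes passed 1.5-fold upward and 1522 downward in control mitotic cells, 764 and 885 in SP11 mitotic cells, and 399 and 208 lay above and below 0 in the difference of ratios. With 200 UMIs these were 333 and 399, 144 and 109, and 3 and 19, where the balance of the difference turned, with 581 and 1166 between the libraries' mitotic cells. There TMM scaling gave 1748 higher genes and DESeq2 size factors 1793. With the highest 10% of cells taken, 64 genes lay above 0 in the difference. The G2M list ratio in the control library was 1.20 when cells were ranked at 4400 UMIs, 1.29 without doublet calls, 1.34 when ranked by that list, 1.35 with equal weight per cell and 1.54 without the next 15%. In the SP11 library it was 0.71, 0.96 when ranked by the list, 0.79 with equal weight and 0.95 without the next 15%. Where the list ranked the cells, it was also what was measured, so 1.34 and 0.96 follow in part from that choice. Apart from this and from changes that follow from testing more or fewer genes, the cause was not tested. Of single named genes, 3 turned sign: CDC25C to -0.10 in SP11 mitotic against other cells when ranked at 4400 UMIs, FBXO5 to 0.08 in the same contrast and PER3 to -0.08 between libraries when ranked by the G2M list. Ranking at 4400 UMIs kept 116 of 144 control (80.6%) and 78 of 115 SP11 mitotic cells (67.8%), so depth and the gapless cut-off limit which cells are named, more so in the SP11 library.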

Other observations

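Outside the cell cycle, several gene groups differed between the libraries' mitotic cells, beside 12.1% of all genes above 1.5-fold and 30.9% as far below. Of 20 measured sterol synthesis genes, none passed 1.5-fold upward and 17 did so downward in SP11 mitotic cells (median log2 ratio -1.57), and the list summed to 1763 and 753 CPM against 1808 and 740 CPM in the other cells. INSIG1, a sensor that restrains sterol synthesis, stood at 208 CPM (control) and 24.4 CPM (SP11) in mitotic cells, a ratio of -3.09. Of 23 measured heat shock genes, 7 were higher and 1 lower (median 0.32, against -0.22 for the median gene). HSPB1, a small heat shock protein, went from 275 to 904 CPM with 1.72 (1.59 to 1.84), and HSP90AA1, the inducible form of the named drug target, from 1216 to 2297 CPM with 0.92 (0.85 to 0.98). Of 23 ribosome biogenesis genes 15 were higher and none lower (median 0.76), and of 31 proteasome genes 13 and none (median 0.37). Of 11 measured NF-kB targets 7 were higher and 2 lower (median 0.85). Lineage markers moved with these groups: of 14 measured monocyte and macrophage genes 9 were higher and 1 lower (summed log2 ratio 0.77), and of 7 measured granule genes 1 was higher and 4 lower (summed log2 ratio -0.90). Their part in the other differences was not tested. None of these differences was particular to mitotic cells. In mitotic and in other cells the summed log2 ratios between libraries were 0.53 and 0.56 for heat shock and 0.54 and 0.62 for proteasome genes. They were 0.51 and 0.38 for ribosome biogenesis genes and 0.51 and 1.03 for NF-kB targets. For monocyte and macrophage genes the other cells had 0.85, and for granule genes -1.13.

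Of 13 mitochondrially encoded genes, none was higher and 10 lower (median -0.80), or none and 5 from the median gene. Their summed log2 ratio between libraries was -0.64 in mitotic and -0.69 in the other cells. BMI1, a Polycomb subunit linked to self-renewal, stood at 389 and 164 CPM in mitotic cells with a ratio of -1.24 (-1.45 to -1.05), above its 259 and 98.1 CPM in the other cells. MYC stood at 95.9 and 68.7 CPM with -0.48 (-0.82 to -0.16). TMM scaling adds 0.23 to this ratio, more than the distance of its interval from 0, so no direction is given for MYC. FTH1, the ferritin heavy chain that stores iron, stood at 978 and 2138 CPM in mitotic cells, while the other SP11 cells held 3950 CPM. S100A8, an alarmin of myeloid cells, had the highest ratio among genes with at least 200 UMIs where they are higher, 6.46, with 2.11 and 186 CPM. Without the cell of most UMIs in each set it was 5.73, and 66.0% of its UMIs in SP11 mitotic cells came from 1 cell. TDO2, an enzyme of tryptophan breakdown, had 0 UMIs in control mitotic cells and 57 in SP11 mitotic cells (37.6 CPM), all in 5 cells, a log2 ratio of at least 5.38 against a floor of 3 counts.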
